A study of Mus musculus with 27 samples.

Results

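The miR-322 to miR-450 cluster, which also holds miR-503, miR-351 and miR-542, is a group of X-linked microRNA hairpins, and it was followed in mouse embryonic stem (ES) cells that lack parts of the Polycomb complex PRC2. Its members were the 10 mature microRNAs mmu-miR-322-5p, mmu-miR-322-3p, mmu-miR-503-5p, mmu-miR-503-3p, mmu-miR-351-5p, mmu-miR-351-3p, mmu-miR-542-5p, mmu-miR-542-3p, mmu-miR-450a-5p and mmu-miR-450b-5p, taken by name at all their loci and written below without the species prefix. They occupied 11 of the 2035 loci and 10 of the 1900 mature names measured. The cluster was picked with the ratios between these columns in view, so all values here describe the columns and test nothing. The study compared 4 genotypes of the CJ7 ES line: wild-type, Eed-/-, Ezh2-/- and Jarid2-/-. PRC2 keeps developmental genes silent by methylating histone H3, with Ezh2 as its enzyme and Eed as the subunit that binds the finished mark, and Jarid2 is an accessory protein that recruits it. All 4 were grown with serum and leukaemia inhibitory factor and received no treatment, and how many clones of each mutant were used is not stated in the labels. Small RNA samples numbered 7, of which 1 was Jarid2-/- and every other genotype had 2, and the measurements reach here as 1 column of counts per genotype.

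MicroRNAs are cut from hairpin precursors whose 5p and 3p arms can both become mature strands, and the bases near the 5′ end, the seed, choose the target messenger RNAs. MiR-322, the mouse counterpart of human miR-424, and miR-503 belong to the wider miR-15/16 family, which restrains cell cycle genes such as those of D-type cyclins. Both are known from differentiating muscle, where they favour exit from the cell cycle, and from early heart mesoderm. MiR-351 carries the seed of miR-125, the vertebrate relative of lin-4. MiR-542 and the miR-450 hairpins lie downstream on the same strand and are less well described.

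The mature sequences are given to show which members share a seed and which do not, in the order of transcription, with bases 2 to 8 in capitals. They come from the deposited tables and were the same in the RefSeq table for GRCm38.p6. The last 2 lines are outside the cluster and are shown for their seeds.
miR-322-5p: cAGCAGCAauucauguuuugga
miR-322-3p: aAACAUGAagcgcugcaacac
miR-503-5p: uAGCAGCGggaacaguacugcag
miR-503-3p: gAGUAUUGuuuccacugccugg
miR-351-5p: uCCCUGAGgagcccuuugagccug
miR-351-3p: gGUCAAGAggcgccugggaac
miR-542-5p: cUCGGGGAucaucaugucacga
miR-542-3p: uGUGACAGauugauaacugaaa
miR-450a-5p: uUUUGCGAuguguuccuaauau
miR-450b-5p: uUUUGCAGuauguuccugaaua
miR-16-5p: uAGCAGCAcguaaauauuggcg
miR-125b-5p: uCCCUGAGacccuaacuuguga

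No seed occurred in more than 1 member. MiR-322-5p and miR-503-5p had 6 of 7 seed bases in common, and miR-450a-5p and miR-450b-5p had 5 of 7. Over their whole length the miR-450 pair matched at 15 of 22 positions counted from the 5′ end, and miR-322-5p and miR-503-5p at 11 of 22. MiR-322-5p has the seed of miR-16-5p, and miR-351-5p has that of miR-125b-5p. Of the 10 members, 5 begin with U.

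On mouse build mm9 the members lie on the minus strand of the X chromosome, at chrX:50401221-50407504, a span of 6284 bp. The cluster has 7 hairpins, given here by the outer ends of their arms. MiR-322 (chrX:50407446-50407504) comes first in the direction of transcription, followed by miR-503 (chrX:50407164-50407226) after 219 bp and miR-351 (chrX:50406453-50406515) after 648 bp. The widest gap, 3801 bp, separates miR-351 from miR-542 (chrX:50402592-50402651). After it come miR-450a-2 (chrX:50401481-50401537), miR-450a-1 (chrX:50401348-50401404) and miR-450b (chrX:50401185-50401242). In the RefSeq gene table for GRCm38, miR-322, miR-503 and miR-351 lie inside the long noncoding RNA gene C430049B03Rik, while miR-542 and the miR-450 hairpins lie inside no other listed gene and have Hprt as the next gene beyond them. No annotation of mm9 was used.

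MicroRNA counts totalled 8485806 in the Jarid2-/- column, 23793733 in that of wild-type, 32074712 in that of Ezh2-/- and 42293019 in that of Eed-/-. A single count was therefore worth 0.0236 to 0.118 CPM, counts scaled to a column sum of 1000000, and a count of 0 allowed, at 3 counts, up to 0.126 CPM in wild-type and 0.354 in Jarid2-/-. All values in parentheses are 95% intervals that cover counting error only. With 1 column per genotype no difference has a replicate check, and amplified reads are not independent molecules. The stem cell label was checked on the miR-290 and miR-302 microRNAs that mark ES cells. Of the 10 listed, 9 were in the tables, none was at 0, and together they made 255158 CPM in Jarid2-/- to 321343 CPM in wild-type.

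The summed level of the 10 members was highest in Eed-/- and lowest in Jarid2-/-. It was 1302 CPM (1287 to 1316) in wild-type from 30969.5 counts, 1870 CPM (1857 to 1883) in Eed-/- from 79106.5, 916 CPM (905 to 926) in Ezh2-/- from 29368 and 379 CPM (366 to 392) in Jarid2-/- from 3217. The decimals arise because miR-450a-5p has 2 loci and entered as their mean. Relative to wild-type the sum was 1.44-fold higher in Eed-/- (1.42 to 1.46), 1.42-fold lower in Ezh2-/- (1.40 to 1.44) and 3.43-fold lower in Jarid2-/- (3.31 to 3.56). The direction in Ezh2-/- depended on the scaling: the log2 ratio of -0.51 became 0.22 with TMM factors and 0.01 with median-ratio factors. Between mutants, Jarid2-/- stood 4.93-fold below Eed-/- (4.76 to 5.11) and 2.42-fold below Ezh2-/- (2.33 to 2.51), and Ezh2-/- stood 2.04-fold below Eed-/- (2.02 to 2.07), or 0.18 below on the log2 scale with TMM factors.

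With total-count scaling the 6 listed microRNAs of skeletal and heart muscle stood in the same order as the cluster sum. They summed to 31.9 CPM in Eed-/-, 15.0 in wild-type, 9.17 in Ezh2-/- and 3.89 in Jarid2-/-. The sums of this and the following lists are given without intervals and without the other scalings, some of which turned the cluster sum in Ezh2-/-. All 6 were in the tables, and the heart microRNA miR-208a-3p was at 0 in every genotype but Eed-/-, the column with the most counts. A single count was worth 0.0236 CPM in Eed-/- and 0.118 in Jarid2-/-, so a 0 elsewhere does not set Eed-/- apart. The 6 fibroblast and mesenchymal microRNAs, none at 0, summed to 1480 CPM in wild-type cells, 1029 in Eed-/- cells, 560 in Ezh2-/- cells and 694 in Jarid2-/- cells. Jarid2-/- was also lowest for the 4 neural microRNAs, at 183 CPM beside 1232 to 1811 in the others, and highest for the 3 epithelial ones, at 5227 CPM beside 1354 to 3069, with none at 0. Of the 6 blood microRNAs 5 were in the tables, at 2866 CPM in Jarid2-/- and 4619 to 9332 in the others. The 4 liver and endoderm microRNAs were highest in Ezh2-/- at 1360 CPM, beside 505 in wild-type, 366 in Eed-/- and 504 in Jarid2-/-. In Jarid2-/-, the column with the fewest counts, miR-122-5p was at 0. The 2 listed endothelial names were not in the tables. Whether such cells were present, and any part of them in the cluster's levels, was not tested.

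**Figure D1:**
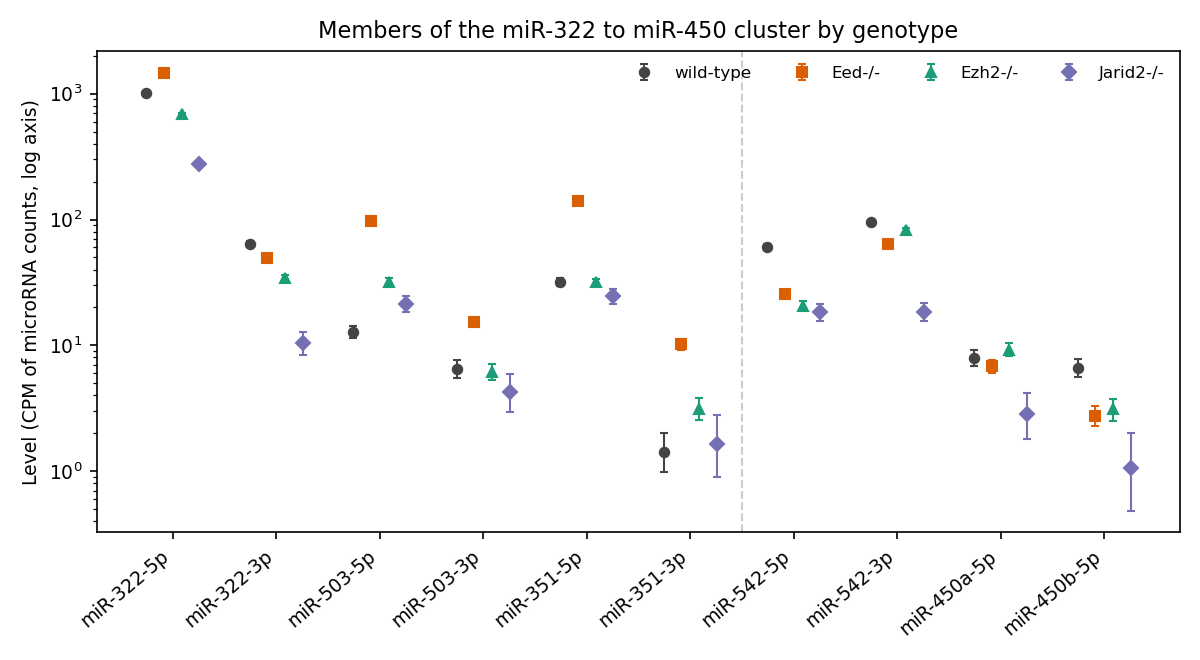
Level of each member in the 4 columns, in CPM on a log axis, with exact Poisson 95% intervals; each point is 1 column, and the dashed line marks the widest gap of the cluster. MiR-503-5p has its lowest point in wild-type at 12.8 CPM and its highest in Eed-/- at 97.9 CPM, while the members right of the line have no highest point in Eed-/-.

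MiR-322-5p, the guide strand related to miR-15/16, dominated the cluster. Its counts were 24143 in wild-type cells, 61713 in Eed-/- cells, 22210 in Ezh2-/- cells and 2343 in Jarid2-/- cells, or 1015, 1459, 692 and 276 CPM. It supplied 78.0% of the cluster's counts in wild-type, 78.0% in Eed-/- cells, 75.6% in Ezh2-/- cells and 72.8% in Jarid2-/- cells, so the sum largely restates this strand. In Jarid2-/- it was 3.67-fold lower than in wild-type (3.52 to 3.84). In Eed-/- it was 1.44-fold higher (1.42 to 1.46). In Ezh2-/- it was 1.47-fold lower (1.44 to 1.49), with a log2 ratio of -0.55 that became 0.18 with TMM factors.

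The other strand of that hairpin, miR-322-3p, was highest in wild-type. It had 1517 counts there, 2080 in Eed-/-, 1096 in Ezh2-/- and 88 in Jarid2-/-, or 63.8, 49.2, 34.2 and 10.4 CPM. Its level was 6.15-fold lower in Jarid2-/- (4.96 to 7.71), 1.87-fold lower in Ezh2-/- (1.73 to 2.02) and 1.30-fold lower in Eed-/- (1.21 to 1.39), the last turning to a log2 ratio of 0.33 when scaled by the authors' RPM denominators. The 2 arms of miR-322 thus lay on opposite sides of wild-type in Eed-/- with total-count scaling and on the same side with the RPM denominators.

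MiR-503-5p, the other cell cycle microRNA of the cluster, was higher in every mutant than in wild-type under each scaling tried. Its counts were 304 in wild-type cells, 4141 in Eed-/- cells, 1028 in Ezh2-/- cells and 182 in Jarid2-/- cells, or 12.8, 97.9, 32.1 and 21.4 CPM. The fold was 7.66 in Eed-/- (6.82 to 8.64), 2.51 in Ezh2-/- (2.21 to 2.86) and 1.68 in Jarid2-/- (1.39 to 2.02), and the last did not reach 2-fold except with the RPM denominators, at a log2 ratio of 1.16. Its partner strand miR-503-3p had 155, 643, 197 and 36 counts in the same order, or 6.51, 15.2, 6.14 and 4.24 CPM. It was 2.33-fold higher in Eed-/- (1.96 to 2.80), a log2 ratio of 1.11 that was 0.98 with TMM and 0.90 with median-ratio factors, and 1.54-fold lower in Jarid2-/- (1.06 to 2.27), and in Ezh2-/- its interval held no difference (ratio 0.943, 0.760 to 1.17). This ratio lay above 1 with TMM, median-ratio and RPM scaling, at log2 values of 0.57, 0.38 and 0.31.

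MiR-351-5p, which carries the seed of miR-125, stood out in Eed-/- only among the 4 columns. It had 754 counts in wild-type, 5927 in Eed-/- cells, 1019 in Ezh2-/- cells and 209 in Jarid2-/- cells, or 31.7, 140.1, 31.8 and 24.6 CPM. The Eed-/- level was 4.42-fold above wild-type (4.10 to 4.78). Ezh2-/- could not be distinguished from wild-type by counting error with total-count scaling (ratio 1.00, 0.912 to 1.10), but its log2 ratio was 0.71 with TMM, 0.51 with median-ratio and 0.43 with RPM scaling. Jarid2-/- was 1.29-fold lower (1.10 to 1.51), a direction that turned with the RPM denominators to a log2 ratio of 0.13. MiR-351-3p was rare, with 34, 430, 100 and 14 counts, or 1.43, 10.2, 3.12 and 1.65 CPM. Its fold was 7.12 in Eed-/- (5.01 to 10.4) and 2.18 in Ezh2-/- (1.47 to 3.32), where the log2 ratio with 1 CPM added was 0.76 and thus not past 2-fold, while with TMM it was 1.31. Its interval in Jarid2-/- held no difference (ratio 1.15, 0.572 to 2.21).

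Past the wide gap the pattern differed: neither arm of miR-542 was highest in Eed-/-, and wild-type held the highest level of both with total-count scaling. MiR-542-3p, the more abundant arm except in Jarid2-/-, where both arms were about equal, had 2272 counts in wild-type, 2693 in Eed-/- cells, 2660 in Ezh2-/- cells and 157 in Jarid2-/- cells, or 95.5, 63.7, 82.9 and 18.5 CPM. It was 5.16-fold lower in Jarid2-/- (4.39 to 6.11). In Eed-/- it was 1.5-fold lower (1.42 to 1.59) and in Ezh2-/- 1.15-fold lower (1.09 to 1.22), but with the RPM denominators the log2 ratios were 0.13 and 0.24. That of Ezh2-/- was also above 0 with TMM, at 0.52, and with median-ratio factors, at 0.31. MiR-542-5p had 1446, 1075, 663 and 155 counts, or 60.8, 25.4, 20.7 and 18.3 CPM. All 3 mutants were below wild-type, by 2.39-fold in Eed-/- (2.21 to 2.59), 2.94-fold in Ezh2-/- (2.68 to 3.23) and 3.33-fold in Jarid2-/- (2.82 to 3.95), and they stayed below it under each scaling. The log2 ratio of -1.23 in Eed-/- became -0.53 with the RPM denominators and that of -1.51 in Ezh2-/- became -0.81 with TMM, so neither reached 2-fold there.

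The precursors of miR-542 and miR-503 are shown because they had the largest shifts between arms of the cluster, miR-503 in all 3 mutants and miR-542 next to it in Ezh2-/- alone. The RefSeq hairpins of miR-503 (chrX:53053984-53054054) and miR-542 (chrX:53049403-53049487), on the minus strand of GRCm38.p6, are written with the 5p arm and then the 3p arm in capitals.
Mir503: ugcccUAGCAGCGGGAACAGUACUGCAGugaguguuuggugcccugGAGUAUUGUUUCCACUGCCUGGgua
Mir542: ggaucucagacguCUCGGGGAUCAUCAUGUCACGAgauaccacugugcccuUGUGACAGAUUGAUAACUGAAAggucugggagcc

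The miR-450 members were the least abundant 5p strands. MiR-450a-5p has a copy in each of 2 hairpins, and the tables give it nearly the same count at both: 187 and 188 in wild-type, 289 and 288 in Eed-/-, 296 and 296 in Ezh2-/- and 24 and 24 in Jarid2-/-. Reads of these copies cannot be told apart, and the counts show 1 microRNA, not 2. Its level was 7.88 CPM in wild-type cells, 6.82 in Eed-/- cells, 9.23 in Ezh2-/- cells and 2.83 in Jarid2-/- cells. Jarid2-/- was 2.79-fold below wild-type (1.82 to 4.47), while the intervals of Eed-/- (ratio 0.862, 0.715 to 1.04) and Ezh2-/- (ratio 1.17, 0.970 to 1.41) held no difference with total-count scaling. The log2 ratio of Ezh2-/- was 0.87 with TMM, 0.68 with median-ratio and 0.59 with RPM scaling, and that of Eed-/- was 0.44 with RPM scaling.

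MiR-450b-5p was lower in every mutant under each scaling, though in Eed-/- its log2 ratio of -1.02 became -0.45 with the RPM denominators and in Ezh2-/- that of -0.89 became -0.31 with TMM. It had 157 counts in wild-type, 116 in Eed-/- cells, 99 in Ezh2-/- cells and 9 in Jarid2-/- cells, or 6.6, 2.74, 3.09 and 1.06 CPM. The level was 2.41-fold lower in Eed-/- (1.88 to 3.09), 2.14-fold lower in Ezh2-/- (1.65 to 2.78) and 6.22-fold lower in Jarid2-/- (3.19 to 13.9). Wild-type stood above all mutants, and Eed-/- and Ezh2-/- overlapped within counting error.

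The cluster also holds 3 loci that are not members, the 3p arms of the miR-450 hairpins. MiR-450b-3p was more abundant than its 5p partner, with 354 counts in wild-type, 337 in Eed-/- cells, 202 in Ezh2-/- cells and 25 in Jarid2-/- cells. With total-count scaling it was 1.87-fold lower than wild-type in Eed-/- (1.60 to 2.17), by 2.36-fold in Ezh2-/- (1.98 to 2.82) and by 5.05-fold in Jarid2-/- (3.36 to 7.91). Its ratios with the other scalings are not given here. MiR-450a-1-3p had between 4 and 87 counts and was not called in any mutant against wild-type. MiR-450a-2-3p had at most 7 counts and was too low to be compared.

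With total-count scaling Jarid2-/- had the lowest level of 8 of the 10 members. The exceptions were miR-503-5p and miR-351-3p, whose lowest level was in wild-type. Jarid2-/- was below Eed-/- and below Ezh2-/- for all 10 members. For miR-542-5p, however, its interval against Ezh2-/- held no difference (ratio 0.884, 0.737 to 1.05). Eed-/- had the highest level of 5 members, wild-type of 4 and Ezh2-/- of miR-450a-5p. Ranking the 4 columns gave 30 neighbouring pairs over the members, and in 9 of them the counting intervals overlapped.

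A member was called higher or lower at a 2-fold ratio of CPM with 1 CPM added, provided 1 of the 2 columns had 10 counts, and all 10 members met that minimum in each comparison. In Eed-/-, 4 of 10 members were called higher, both arms of miR-503 and of miR-351, where 17.5% of the 1096 tested loci were higher. There 2 were called lower, miR-542-5p and miR-450b-5p, where 15% of loci were. In Ezh2-/-, miR-503-5p was called higher (4.9% of 1000 loci) and miR-542-5p lower (24.5%). In Jarid2-/-, 6 of 10 were called lower (22.8% of 950 loci) and 0 higher (16.3%): both arms of miR-322, both arms of miR-542, miR-450a-5p and miR-450b-5p. The median log2 ratio of the members was 0.17 in Eed-/-, -0.14 in Ezh2-/- and -1.45 in Jarid2-/-, beside 0.08, -0.44 and -0.17 over all tested loci. Between mutants, members called lower numbered 5 of 10 for Ezh2-/- over Eed-/- (35.7% of 1091 loci), 8 for Jarid2-/- over Eed-/- (18.9% of 1073) and 4 for Jarid2-/- over Ezh2-/- (8.92% of 930). None was called higher there, beside 4.58%, 7.18% and 33% of loci. Because the cluster was picked on these ratios, the counts and medians are given without reading an excess from them.

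The balance of all calls moved with the scaling. Loci called higher made up 53.9% of calls in Eed-/-, 16.7% in Ezh2-/- and 41.7% in Jarid2-/-. With median-ratio factors these shares were 40.1%, 36.8% and 37.2%, with TMM factors 46.7%, 46.9% and 40.9%, and with the RPM denominators 76.8%, 33.5% and 59.0%. The median of all loci became 0.46 in Eed-/- with the RPM denominators, 0.09 in Ezh2-/- with TMM and 0.20 in Jarid2-/- with the RPM denominators.

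**Figure D2:**
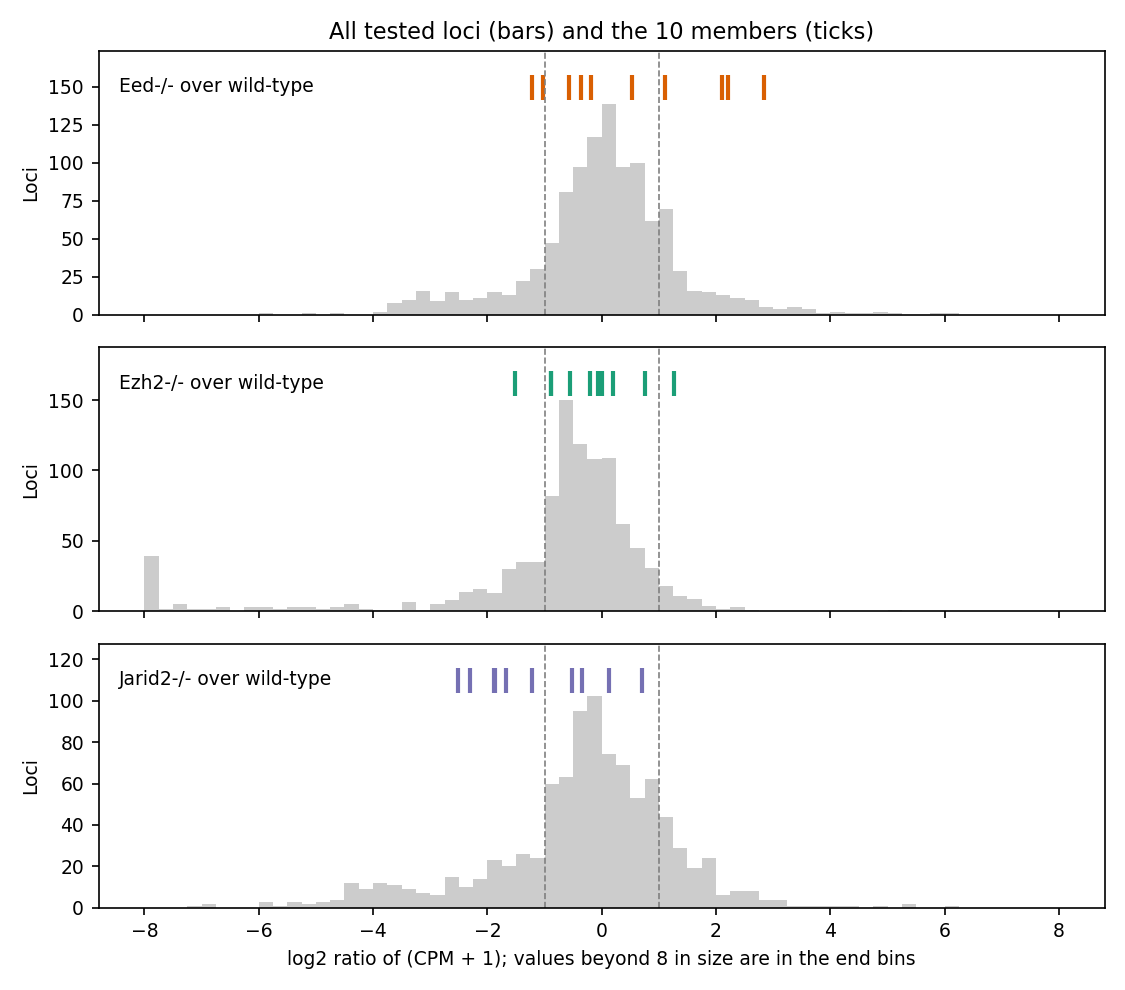
Log2 ratio of (CPM + 1) to wild-type for all tested loci (grey bars, loci per bin) and for the 10 members (coloured ticks), 1 panel per mutant; dashed lines mark 2-fold. The members reach from -1.23 to 2.84 in Eed-/-, from -1.51 to 1.26 in Ezh2-/- and from -2.51 to 0.70 in Jarid2-/-.

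Ratios within a column do not depend on the scaling between columns, and they separated miR-503 and miR-351 from miR-322. For every 1000 counts of miR-322-5p there were 12.6 counts of miR-503-5p in wild-type cells (11.2 to 14.1), 67.1 in Eed-/- cells (65.0 to 69.2), 46.3 in Ezh2-/- cells (43.4 to 49.3) and 77.7 in Jarid2-/- cells (66.4 to 90.4). The wild-type column was thus the low one by 3.68-fold to 6.17-fold. MiR-351-5p gave 31.2 in wild-type cells (29.0 to 33.6), 96.0 in Eed-/- cells (93.5 to 98.6), 45.9 in Ezh2-/- cells (43.0 to 48.9) and 89.2 in Jarid2-/- cells (77.1 to 102.8). Here too wild-type was lowest, and Ezh2-/- stood nearest to it.

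The rare strands miR-351-3p and miR-503-3p followed in the same direction. MiR-351-3p gave 1.41 per 1000 in wild-type (0.975 to 1.97) and between 4.5 and 6.97 in the mutants. MiR-503-3p gave 6.42 in wild-type (5.45 to 7.52) and between 8.87 and 15.4 in the mutants. Jarid2-/- therefore had less of the cluster in total but, per count of miR-322-5p, amounts of miR-503-5p and miR-351-5p whose counting intervals overlapped those of Eed-/-. As shares of the cluster, miR-503 made 1.48% in wild-type (1.35 to 1.62) and 6.05% in Eed-/- (5.88 to 6.22), 4.17% in Ezh2-/- (3.95 to 4.41) and 6.78% in Jarid2-/- (5.93 to 7.70).

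**Figure D3:**
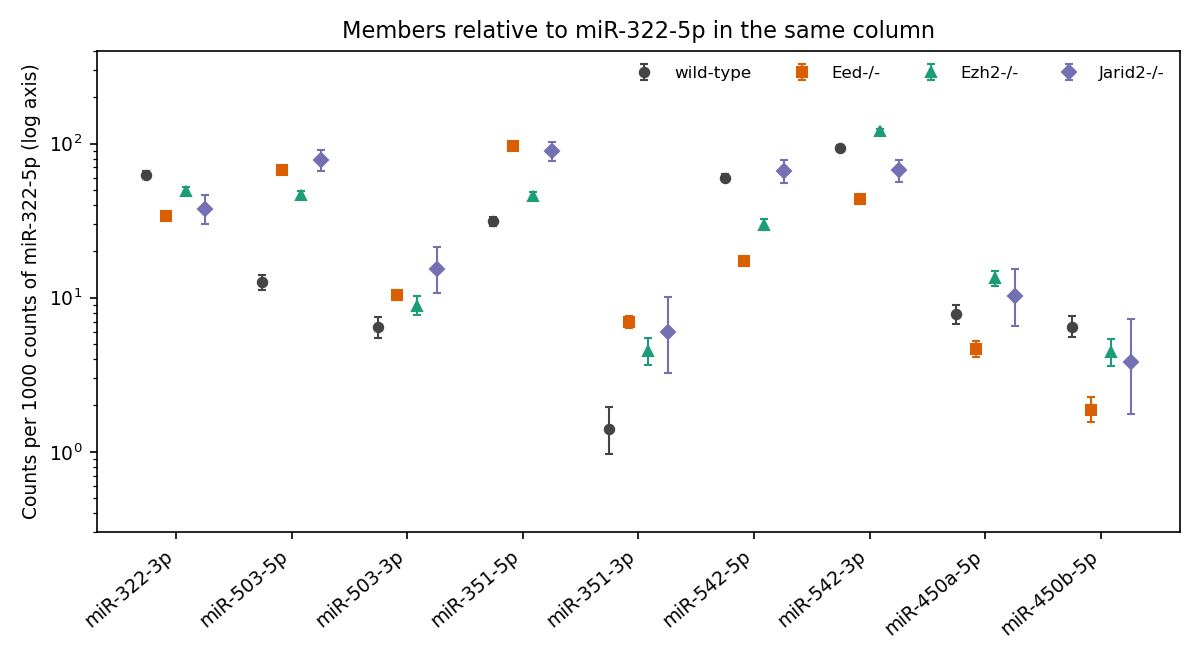
Counts of each other member per 1000 counts of miR-322-5p in the same column, on a log axis, with exact 95% intervals; each point is 1 column. The wild-type points of miR-503-5p, miR-503-3p, miR-351-5p and miR-351-3p lie below all 3 mutants, at 12.6, 6.42, 31.2 and 1.41.

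The 4 downstream members had another low column, Eed-/-, and no shared order among the remaining columns. MiR-542-3p stood at 94.1 per 1000 of miR-322-5p in wild-type cells (90.1 to 98.2), 43.6 in Eed-/- cells (42.0 to 45.4), 119.8 in Ezh2-/- cells (115.0 to 124.7) and 67.0 in Jarid2-/- cells (56.6 to 78.8). MiR-542-5p stood at 59.9 (56.8 to 63.2), 17.4 (16.4 to 18.5), 29.9 (27.6 to 32.3) and 66.2 (55.9 to 77.9) in the same order. Jarid2-/- held wild-type's value of the 5p arm within counting error. MiR-450a-5p stood at 7.79 (6.71 to 8.99), 4.67 (4.14 to 5.24), 13.3 (11.8 to 14.9) and 10.2 (6.55 to 15.3), and miR-450b-5p at 6.50 (5.52 to 7.61), 1.88 (1.55 to 2.25), 4.46 (3.62 to 5.43) and 3.84 (1.75 to 7.30). For miR-450b-5p the intervals of Eed-/- and Jarid2-/- overlapped.

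Set side by side, the balance of the 6 members before the wide gap and the 4 after it was farthest from wild-type in Eed-/-, and its intervals overlapped those of wild-type in Ezh2-/- and not in Jarid2-/-. The ratio of their counts was 6.62 in wild-type (6.41 to 6.85), 6.90 in Ezh2-/- (6.67 to 7.14), 8.32 in Jarid2-/- (7.44 to 9.34) and 18.0 in Eed-/- (17.4 to 18.5). In CPM with total-count scaling, the first group was 1.57-fold above wild-type in Eed-/- (1.55 to 1.59), while the second was 1.73-fold below it (1.66 to 1.81). The direction of the second group was not shared by its members under the RPM denominators. There the log2 ratios in Eed-/- were 0.13 for miR-542-3p and 0.44 for miR-450a-5p, but -0.53 for miR-542-5p and -0.45 for miR-450b-5p. In Jarid2-/- both groups were lower, by 3.34-fold (3.22 to 3.47) and 4.20-fold (3.76 to 4.70). MiR-503 and miR-351 alone, without miR-322, were 5.03-fold higher in Eed-/- (4.74 to 5.33), and in Jarid2-/- with total-count scaling their interval held no difference from wild-type (ratio 0.992, 0.888 to 1.11).

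**Figure D4:**
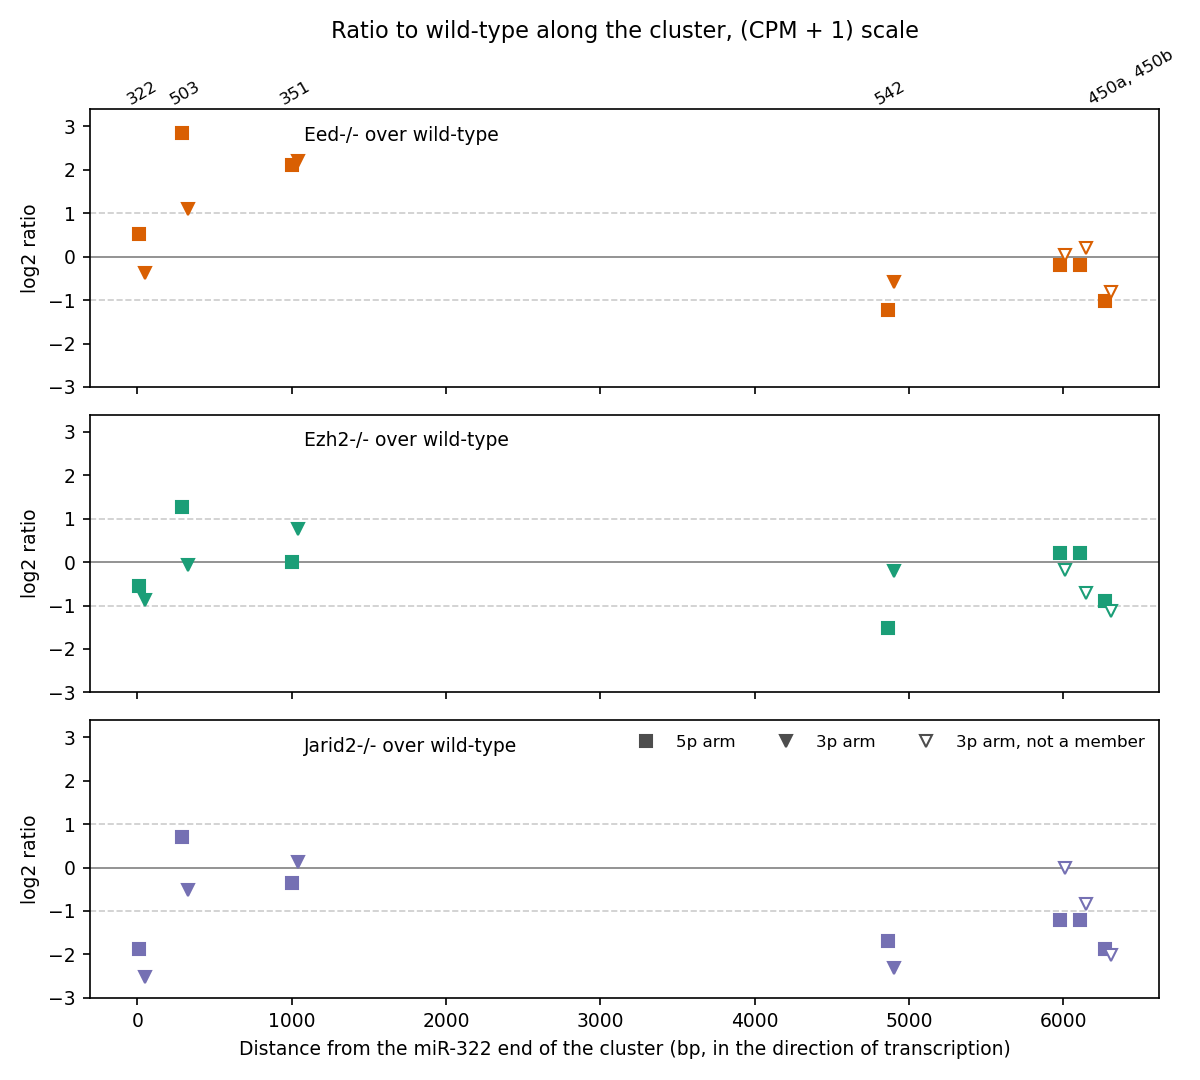
Log2 ratio of (CPM + 1) to wild-type at each locus against distance from the miR-322 end in bp, 1 panel per mutant; squares are 5p arms, triangles 3p arms, open symbols loci that are not members, and dashed lines mark 2-fold. In Eed-/- the values of miR-503 and miR-351, 1.11 to 2.84, stand above those of the members past the gap, which are at or below -0.18.

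The share of the 5p arm in each hairpin also differed between columns, but shifts of that size were common over all hairpins. For miR-503 it was 66.2% in wild-type cells (61.7 to 70.5), 86.6% in Eed-/- cells (85.6 to 87.5), 83.9% in Ezh2-/- cells (81.7 to 85.9) and 83.5% in Jarid2-/- cells (77.9 to 88.2). Wild-type was the low column, and the 3 mutants lay within 3.1 percentage points of each other. For miR-542 the 5p share was 38.9% in wild-type cells (37.3 to 40.5), 28.5% in Eed-/- cells (27.1 to 30), 20.0% in Ezh2-/- cells (18.6 to 21.4) and 49.7% in Jarid2-/- cells (44.0 to 55.4). The miR-322 share ran from 94.1% in wild-type to 96.7% in Eed-/-, and the miR-351 share from 91.1% in Ezh2-/- to 95.7% in wild-type. MiR-450b, by contrast, lay between 25.6% and 32.9% with overlapping intervals in all 4 columns.

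Across all hairpins with 10 counts of each arm in both columns, the 5p to 3p ratio differed from wild-type by at least 2-fold in 41.1% of 253 hairpins in Eed-/-, 30.9% of 204 in Ezh2-/- and 47.3% of 205 in Jarid2-/-. MiR-503 was past 2-fold in all 3, at 3.28-fold, 2.66-fold and 2.58-fold higher. In Ezh2-/- the ratio was 2.55-fold lower for miR-542 and 2.18-fold lower for miR-351. A shift as large as that of miR-503 was shown by 22.9%, 16.7% and 33.7% of hairpins in Eed-/-, Ezh2-/- and Jarid2-/-.

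**Figure D5:**
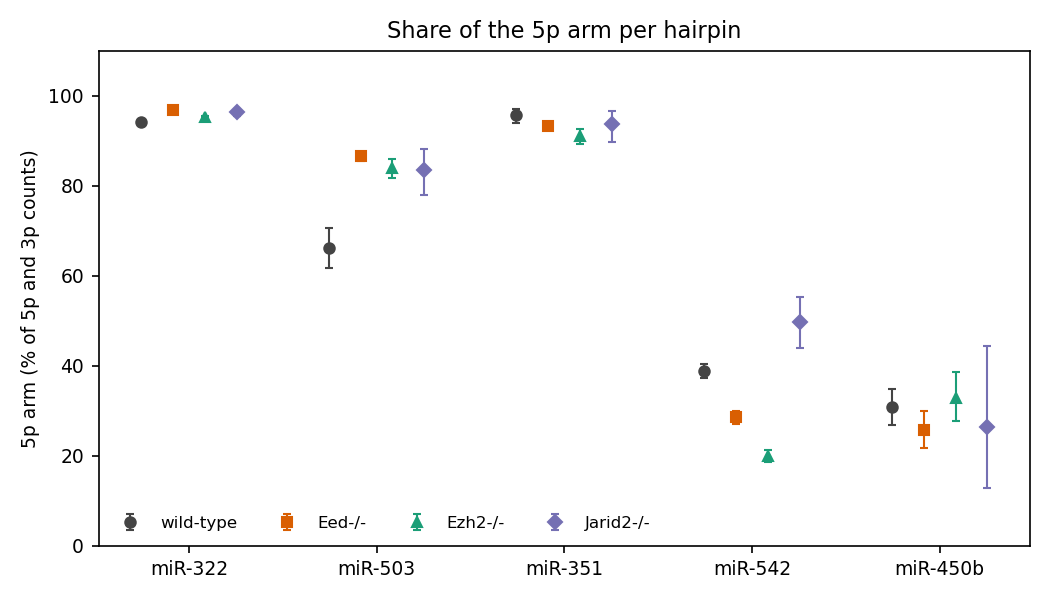
Share of the 5p arm among 5p and 3p counts of a hairpin, in percent, with Clopper-Pearson 95% intervals; each point is 1 column. For miR-503 the wild-type point at 66.2% lies below the 3 mutants, and for miR-542 the 4 points run from 20.0% to 49.7%.

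Among microRNAs elsewhere in the genome with a member's seed, 6 were tested for miR-322-5p by RefSeq and 2 for miR-351-5p. MiR-497-5p, which carries the seed of miR-322-5p by the deposited sequences, was tested as well. With total-count scaling miR-15a-5p, miR-497-5p and miR-125b-5p were called lower in a mutant, and none was called higher. Of all tested loci, 15% to 24.5% were called lower and 4.9% to 17.5% higher, depending on the mutant. No shared direction of the relatives is read from these few calls. The seed of miR-322-5p occurred in 8 other mature names by the RefSeq table, of which 6 had 10 counts in a column. None of the 6 was called higher in any mutant, and the 1 called lower in both Eed-/- and Jarid2-/- was miR-15a-5p, at 3.27-fold (3.21 to 3.33) and 3.22-fold (3.11 to 3.33). The most abundant, miR-15b-5p, stood at 5085 CPM in wild-type cells, 4901 in Eed-/- cells, 5147 in Ezh2-/- cells and 8007 in Jarid2-/- cells. MiR-16-5p, the mean of its 2 loci, stood at 2422, 3262, 1774 and 3623 CPM, and miR-195a-5p at 305, 302, 221 and 381 CPM. The other 2, miR-6342 and miR-6353, were at or below 1.47 CPM in all columns.

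Summed over these relatives and miR-322-5p, the seed stood at 10183 CPM in wild-type cells, 10340 CPM in Eed-/- cells, 9719 CPM in Ezh2-/- cells and 12710 CPM in Jarid2-/- cells. MiR-322-5p supplied 9.96% of it in wild-type cells (9.85 to 10.1), 14.1% in Eed-/- cells (14.0 to 14.2), 7.12% in Ezh2-/- cells (7.03 to 7.22) and 2.17% in Jarid2-/- cells (2.09 to 2.26). With total-count scaling Jarid2-/- thus had the lowest miR-322-5p and the highest level of the seed as a whole. When every locus of a name was added up, the supplied shares were 8.05%, 10.7%, 6.02% and 1.69%. By the deposited sequences 2 further names carry the seed, miR-497-5p at 464, 135, 137 and 345 CPM and miR-1907 with at most 1 count, and with them the shares were 9.53%, 13.9%, 7.03% and 2.12%. MiR-497-5p was called lower in Eed-/- at 3.43-fold (3.32 to 3.54) and in Ezh2-/- at 3.38-fold (3.26 to 3.5), and was not called in Jarid2-/-.

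For the seed of miR-351-5p the relatives were miR-125a-5p and miR-125b-5p, the lin-4 homologues, and 2 names with at most 2 counts. MiR-125a-5p stood at 2343 CPM in wild-type cells, 1545 in Eed-/- cells, 1495 in Ezh2-/- cells and 2018 in Jarid2-/- cells, and miR-125b-5p at 529, 327, 702 and 251 CPM. With total-count scaling miR-125b-5p was called lower in Jarid2-/-, at 2.11-fold (2.01 to 2.21), and neither was called in the other mutants. MiR-351-5p supplied 1.09% of its seed in wild-type (1.02 to 1.17) and 6.97% in Eed-/- (6.80 to 7.14), where both relatives were below wild-type, 1.43% in Ezh2-/- (1.34 to 1.52) and 1.07% in Jarid2-/- (0.934 to 1.23). The only relative of miR-542-5p by seed, miR-6966-5p, had at most 2 counts. No name outside the cluster carried the seed of miR-503-5p or of the remaining members.

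Calls of the other X chromosome microRNAs, made with total-count scaling, are set beside those of all tested loci. Of 152 X chromosome loci outside the cluster, 85 were tested in Jarid2-/-. There 11 were called higher and 10 lower, beside 16.3% and 22.8% of all loci, with median log2 ratios of -0.11 and -0.17. In Eed-/- 18 of 106 were higher and 10 lower, beside 17.5% and 15% of all loci, with medians of 0.39 and 0.08. In Ezh2-/- 2 of 85 were higher and 21 lower, beside 4.9% and 24.5% of all loci, with medians of -0.70 and -0.44. No result about the X chromosome is read from these counts. The X-linked pair miR-221 and miR-222, which promote the cell cycle by acting on its inhibitor p27, was also low in Jarid2-/-, with a summed level of 415 CPM in wild-type and 109 in Jarid2-/-, and lower still in Ezh2-/- at 51.2. The miR-500 to miR-532 group stood at 1131 CPM in wild-type, with Eed-/- at 1898, Ezh2-/- at 587 and Jarid2-/- at 1261, so its first 2 mutants lay on the same sides of wild-type as those of the cluster sum and Jarid2-/- did not. The miR-743a to miR-465a group lay on the same side in all 3, with Eed-/- at 138.3 CPM, wild-type at 68.7, Jarid2-/- at 39.4 and Ezh2-/- at 26.9. The remaining X-linked groups that were summed were not low in Jarid2-/-. Groups with few names or few counts were not summed. The let-7f to miR-98 group stood there at 128 CPM beside 50.3 in wild-type, and the miR-421 to miR-374b group at 582 beside 270. The miR-363 to miR-106a group stood at 110751 beside 103559, and the miR-224 to miR-452 group at 15.2 beside 14.7.

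By pattern over the 4 columns, the 5 names outside the cluster nearest to the cluster sum were sought among 710 names with at least 50 counts in 1 column. Likeness was the Euclidean distance of log2 (CPM + 1) values centred on their own mean, for which the median name had 2.10. The nearest was miR-29b-1-5p at 0.13, with 215 counts in wild-type, 628 in Eed-/- cells, 197 in Ezh2-/- cells and 19 in Jarid2-/- cells. It was followed by miR-375-3p at 0.35, miR-3102-5p.2-5p at 0.39, miR-219a-2-3p at 0.45 and miR-6546-5p at 0.52, the last 2 with 0 counts in Jarid2-/-. Members other than miR-322-5p lay between 0.69 for miR-322-3p and 1.97 for miR-503-5p, farther from the sum than these 5 names. With 4 columns such distances describe only these libraries.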

How the data were processed

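Small RNA libraries were made from RNA of 18 to 40 nt and sequenced on a SOLiD instrument, per the labels' protocols. Cutadapt, Bowtie and the build mm9 are named in the submitters' processing notes, with versions and settings not given in the sources used here. Tables as deposited give read counts per mature microRNA locus of miRBase release 20, per the file headers. They also give the authors' RPM, which were used here only to recover the authors' denominators. No source used here says how reads with several matches were counted, or whether a column pools the 2 samples listed for wild-type, Eed-/- and Ezh2-/-. Columns were assigned by their names: the Eed-/- column is named HEED with no explanation of the H, the Jarid2-/- column carries the older name Jumonji, and the wild-type column names undifferentiated CJ7 cells and no mutant gene.

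Levels are CPM, counts scaled to a sum of 1000000 over the microRNA counts of the column. A name with several loci was given their mean. Log2 ratios used CPM plus 1, which understates the differences of low members, and folds used nothing added. A locus was tested for size if either column had 10 counts or more, and called at 2-fold. Folds have exact conditional binomial 95% intervals, levels exact Poisson intervals and shares Clopper-Pearson intervals (SciPy 1.17.1). With 1 column per genotype no test across libraries was possible. The call rule was checked on simulated counts.

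Alternatives were TMM factors (edgeR 4.0.16), median-ratio size factors (DESeq2 1.42.0), the RPM denominators, totals without the miR-290 cluster and the Gtl2-Rian-Mirg region, a minimum of 1 or 100 counts, a pseudocount of 0.1 or 10 CPM, sums over loci, the whole cluster by position, and the sum without its most abundant member. The named microRNAs were the 10 members, the other loci of the cluster, the seed relatives with at least 10 counts in 1 column and the 5 names with the most similar pattern among those with at least 50 counts in 1 column. The members and lists were chosen with earlier results of these data known. The division at the widest gap, the levels relative to miR-322-5p and the comparison of arms over all hairpins were added after the values were seen.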

Additional observations from a re-analysis of the deposited data

How the results depend on the processing

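Values here are log2 ratios of the summed level of the 10 members. For Eed-/- over wild-type (0.52) they were 0.40 with TMM factors, 0.30 with median-ratio factors and 1.24 with the RPM denominators of the authors, and, for the split chosen after seeing the data, 0.65 with miR-322, miR-503 and miR-351 alone and -0.79 with miR-542, miR-450a and miR-450b alone. For Ezh2-/- over wild-type (-0.51) the direction turned with TMM (0.22) and with median-ratio factors (0.01), and the values were -0.062 with the RPM denominators, -0.47 without the miR-290 cluster and the Gtl2-Rian-Mirg region in the total, -0.36 without miR-322-5p and -0.56 for miR-542, miR-450a and miR-450b alone. For Jarid2-/- over wild-type (-1.78) they were -1.90 with median-ratio factors, -1.28 with the RPM denominators, -1.93 with the reduced total, -1.48 without miR-322-5p and -2.07 for miR-542, miR-450a and miR-450b alone. With TMM, median-ratio factors, the RPM denominators and the reduced total in turn, Ezh2-/- over Eed-/- (-1.03) gave -0.18, -0.29, -1.30 and -1.01, and Jarid2-/- over Eed-/- (-2.30) gave -2.20, -2.20, -2.52 and -2.47. Jarid2-/- over Ezh2-/- (-1.27) gave -2.03, -1.91 and -1.46 with TMM, median-ratio factors and the reduced total. Of members called, 4 were higher and 2 lower in Eed-/-. With a pseudocount of 10 CPM these counts were 2 and 0, with the RPM denominators 5 and 0, and with TMM or median-ratio factors 3 and 2. Of all 1096 loci tested there, 192 were called higher and 164 lower. These became 350 and 106 with the RPM denominators, 157 and 179 with TMM, and 130 and 194 with median-ratio factors. In Ezh2-/-, with 1 member higher and 1 lower, 2 were higher with TMM, median-ratio, RPM scaling or a pseudocount of 0.1 CPM. With a pseudocount of 10 CPM 0 were higher, while 0 were lower with TMM and 2 with 0.1 CPM. Of all 1000 loci tested there, 49 were called higher and 245 lower. These became 144 and 163 with TMM, 110 and 189 with median-ratio and 93 and 185 with RPM scaling. In Jarid2-/-, with 0 members higher and 6 lower, 1 was higher and 5 lower with the RPM denominators. With a pseudocount of 10 CPM 4 were lower, and miR-450a-5p (-0.48) and miR-450b-5p (-0.59) were no longer called. Of all 950 loci tested there, 155 were called higher and 217 lower, or 253 and 176 with the RPM denominators. Calls over all loci are not given here for the other pseudocounts. For the single members, 72 of 269 alternative values differed by more than the counting interval, and no called ratio turned its direction. Beyond these scalings and settings the cause of a difference was not tested.

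No paired analysis was possible because each genotype has 1 column, with no replicate number shared between genotypes, and no replicate was left out with 1 column per genotype. Depth limited the rare strands most: miR-450b-5p had 9 counts in Jarid2-/- and miR-351-3p 14, so their ratios have wide intervals.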
